A study of Danio rerio with 8 samples.

Results

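Cluster c2 held 27.2% of the adult zebrafish skin cells that the authors grouped by their RNA profiles into 5 clusters, beside 470 cells in the others. Its members were taken as the authors had assigned them, and the other clusters held 194 cells (c1), 122 cells (c3), 82 cells (c4) and 72 cells (c5). The cells came from the dermis of the flank of untreated fish carrying pnp4a:palmmCherry and pnp4a:nlsEos, which mark the membrane and the nucleus of cells that use the promoter of the iridophore gene pnp4a. Stripes (labelled dark, 4 plates) and interstripes (labelled light, 4 plates) were dissected and dissociated apart, and single cells high for both reporters were sorted into wells. Skin of different fish was pooled before sorting, and the deposited cluster table pools all plates. The table therefore gives neither the fish nor the skin band of a c2 cell, and a difference between plates cannot be told apart from a difference between clusters. The study reported c2 cells from both bands, with more from stripes than from interstripes.

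Iridophores are pigment cells of the neural crest that reflect light from stacks of guanine crystals, and they make the guanine by purine synthesis and salvage. Xanthophores, the yellow to orange pigment cells of the interstripe, store pteridines made from GTP and carotenoids taken up from the diet, which lie in lipid droplets. Melanophores, the third adult pigment cell of this fish, make melanin and lie in the stripes.

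Each gene is described in a cluster by the share of cells in which it had a value (above 0) and by its level over those expressing cells, in natural log units of the corrected count plus 1. The mean over all cells of a cluster is the share multiplied by that level. Unless another reference is named, c2 was set against the 470 cells of c1, c3, c4 and c5 together, for the 1700 genes that reached a share of 10% on either side. A difference of means of 0.5 was counted as a difference by size. Since the clusters were made from these same values and cells are not replicates, every difference from another cluster is a description of the cells and was not tested. Intervals of shares are exact Clopper-Pearson 95% intervals and cover counting error only, and where no cell had a value the limit given is 3 cells.

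The label of low iridophore markers held for the means of all 5 marker genes used in the study, each of which had its lowest mean of the 5 clusters in c2. Of the 1700 genes compared, 69.2% also had their lowest mean there, so that the order alone does not set the markers apart. The label did not describe an absence, because most c2 cells still contained RNA of several of them. gpnmb, which encodes a glycoprotein of pigment organelles, was found in 80.1% of c2 cells (73.4 to 85.7%), against 91.2% of c1, 95.1% of c3, 97.6% of c4 and 88.9% of c5 cells. Its mean over all cells was 1.80 ± 1.67 in c2 (SD over cells), against 3.33 ± 1.72 in c1, 3.70 ± 1.47 in c3, 1.92 ± 1.07 in c4 and 3.15 ± 1.65 in c5. The mean in c2 was thus far below those of c1, c3 and c5 but only 0.12 below that of c4. pnp4a, the purine nucleoside phosphorylase whose promoter drove both reporters, was found in 75.6% of c2 cells (68.5 to 81.7%), against 79.4% of c1, 82.8% of c3, 98.8% of c4 and 79.2% of c5 cells. Its mean was 1.55 ± 1.52 in c2, against 2.91 ± 1.96 in c1, 2.86 ± 1.87 in c3, 1.87 ± 1.00 in c4 and 2.75 ± 1.88 in c5. The gene by whose reporters every cell was sorted was therefore found in about as large a share of c2 as of c1, c3 and c5 cells, with overlapping intervals, while its level was lower.

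The transcription factor genes of the iridophore lineage showed the same arrangement less evenly. alx4a, a homeobox gene, was found in 58.0% of c2 cells (50.3 to 65.3%), a share above those of c1 (55.2%) and c5 (50.0%) and below those of c3 (72.1%) and c4 (87.8%). Its level over expressing cells was 1.73 in c2, against 2.86 in c1, 3.01 in c3, 1.58 in c4 and 2.89 in c5. The lower mean of alx4a in c2, by 0.67, thus came mostly from the level and not from fewer cells. alx4b, its paralog, was found in 35.2% of c2 cells, against 40.2% of c1, 36.1% of c3, 70.7% of c4 and 31.9% of c5 cells, with a mean lower by 0.51. tfec, a transcription factor gene related to mitfa, was the exception. It was found in 9.09% of c2 cells (5.29 to 14.3%), against 17.5% of c1, 17.2% of c3, 39.0% of c4 and 11.1% of c5 cells, but its level over expressing cells was 2.32 in c2, against 2.58 in c1, 2.20 in c3, 0.93 in c4 and 2.03 in c5. The difference of its means, -0.17, lay close to the median over all genes compared.

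**Figure D1:**
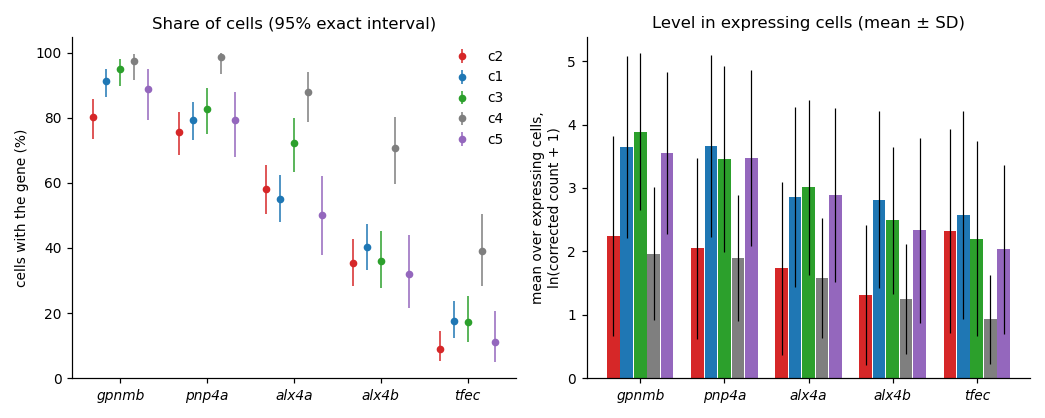
Left, share of cells of c2, c1, c3, c4 and c5 (%) with each of the 5 iridophore marker genes, with exact 95% intervals; right, mean ± SD over expressing cells in natural log units. The c2 shares of alx4a and alx4b lie among those of c1, c3 and c5, while the c2 levels of gpnmb, pnp4a, alx4a and alx4b lie between those of c4 and of c1, c3 and c5.

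Several iridophore genes beyond these markers were lower in c2 by more. Of 26 measured genes of a list of iridophore differentiation, which includes the 5 markers, 17 were compared, and 9 of the 17 were lower by 0.5 or more and none was higher by that size. The share of all genes compared that were lower by this size was 9.18% (156 genes). The median difference of the 17 genes was -0.51, beside -0.16 over all genes compared, and it became -0.16 over all 26 measured genes. Relative to the median of the ribosomal protein genes, that of the 17 became -0.06 (-0.23 for the 5 markers), but this did not match genes by level. At a mean of at least 2 in the other clusters, the median was -1.96 for 7 iridophore genes and -0.70 for 24 ribosomal protein genes. The lowest mean of the 5 clusters was in c2 for 13 of the 17 (76.5%, near the 69.2% of all genes compared). fhl2a, which encodes a LIM-domain cofactor, had a mean of 1.81 ± 1.52 in c2, against 4.58 ± 1.93 in c1, 3.62 ± 1.76 in c3, 2.54 ± 1.15 in c4 and 5.21 ± 1.54 in c5. defbl1, a beta-defensin-like gene, had a mean of 2.38 ± 1.60 in c2, against 4.89 ± 1.36 in c1, 4.47 ± 1.09 in c3, 3.13 ± 1.40 in c4 and 4.85 ± 1.17 in c5. Both were nevertheless present in most c2 cells, fhl2a in 80.7% and defbl1 in 89.8%. apoda.1, an apolipoprotein D gene, had a mean of 2.87 ± 1.75 in c2, against 5.25 ± 1.15 in c1, 5.00 ± 1.15 in c3, 3.64 ± 1.21 in c4 and 5.41 ± 0.80 in c5.

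Of the 12 genes furthest below every other cluster, 5 were on that list (akap12a, lypc, apoda.1, defbl1 and fhl2a), which held 17 of the 1700 genes compared. The list was chosen with earlier results of these data known, so that this overlap can restate its choice and was not tested. akap12a, which encodes a scaffold that anchors protein kinase A, had a mean of 3.41 ± 1.47 in c2, against 5.36 ± 1.38 in c1, 6.04 ± 0.92 in c3, 4.55 ± 0.89 in c4 and 5.24 ± 1.49 in c5, and was still found in 161 c2 cells (91.5%). zgc:101840, named CRIP2 in the reference names and thus a cysteine-rich LIM-domain gene, had the largest difference of all genes compared (-2.28), with a mean of 0.94 ± 1.11 in c2, against 3.49 ± 1.78 in c1, 3.71 ± 1.70 in c3, 2.02 ± 1.23 in c4 and 3.02 ± 1.91 in c5. lypc, of the Ly6 family of small surface proteins, stood out for its even presence in the other clusters. It was found in every c1, c3 and c4 cell and in 98.6% of c5 cells, but in 89.8% of c2 cells, so that about 1 in 10 c2 cells lacked a value for it. Its mean was 4.18 ± 1.60 in c2, against 6.40 ± 0.30 in c1, 5.38 ± 0.60 in c3, 5.17 ± 0.49 in c4 and 5.75 ± 0.83 in c5, so that its SD over cells was also widest in c2. The others were lgals2a, a galectin gene (2.02 in c2, against 4.05 in c1, 5.05 in c3, 2.83 in c4 and 3.18 in c5), sytl2b, of the synaptotagmin-like vesicle tethers (1.38 in c2, against 3.02 in c1, 3.81 in c3, 2.15 in c4 and 2.85 in c5), and the protocadherin gene pcdh10a (0.72 in c2, against 2.39 in c1, 2.19 in c3, 1.46 in c4 and 1.90 in c5), with defbl1, fhl2a, apoda.1, zgc:92630, smim29 and tpd52l1.

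The lower means in c2 were not particular to iridophore genes. c2 had the lowest mean of the 5 clusters for 1177 of the 1700 genes compared (69.2%), while c1 had it for 97, c3 for 148, c4 for 34 and c5 for 244. The size of the difference moved with the level of the gene. Of the 77 genes with a mean of at least 2 in the other clusters, 59 (76.6%) were lower in c2 by 0.5 or more, with a median difference of -0.82. Of the 173 genes with a mean between 1 and 2, 79 (45.7%) were lower by this size with a median of -0.48, and of the 331 genes between 0.5 and 1, 18 (5.44%) were, with a median of -0.26. Since a mean cannot fall below 0, a gene with a mean below 0.5 could not be lower by this size, and the level of a gene limits its difference. The 7 genes of the iridophore list with a mean of at least 2 had a median difference of -1.96, and the 24 ribosomal protein genes at this level one of -0.70. CR383676.1, named malat1 in the reference names, a long noncoding RNA of the nucleus, was lower as well, at 4.31 ± 2.26 in c2, against 6.31 ± 1.63 in c1, 6.69 ± 1.25 in c3, 3.31 ± 0.84 in c4 and 6.75 ± 0.66 in c5. Its c2 mean lay between that of c4 and those of the others, and its SD was the widest of the 5.

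**Figure D2:**
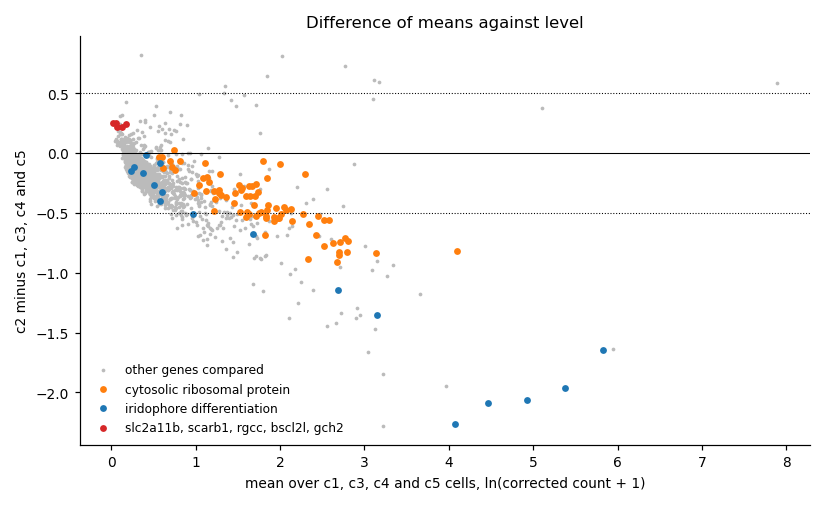
Difference of means, c2 minus the cells of c1, c3, c4 and c5 together, against the mean in those cells, for the 1700 genes compared, both in natural log units; dotted lines mark differences of 0.5. Iridophore genes (blue) reach -2.26, ribosomal protein genes (orange) lie between -0.91 and 0.03, and the 5 genes proposed as c2 markers (red) lie between 0.22 and 0.25 at low level.

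Ribosomal protein genes, which every cell uses, gave the measure of this wider difference. Of 86 measured genes for cytosolic ribosomal proteins, 80 were compared, and 79 of them had a lower mean in c2 (98.8%, beside 89.9% of all genes compared). Of the 80, 31 were lower by 0.5 or more (38.75%, beside 9.18% of all genes compared), and the median difference was -0.45. rpl3 was lower by 0.88, rpl32 by 0.85 and rpl11 by 0.84, and rpl11 was found in 90.3% of c2 cells, against 90.0% of the other cells. The translation elongation factor gene eef1a1l1 was lower by 0.94. Of 30 compared translation factor genes, 3 were lower by 0.5 or more (10%, near the 9.18% of all genes compared). None of the 46 compared genes of oxidative phosphorylation reached a difference of 0.5, but all 46 had a lower mean in c2, with a median difference of -0.20. None of 15 compared proteasome genes reached this size either, but all 15 had a lower mean in c2, with a median of -0.17. Set against the median of the ribosomal protein genes, these medians turned to 0.25 for oxidative phosphorylation and 0.27 for the proteasome. However, 24 ribosomal protein genes had a mean of at least 2 in the other clusters, and no compared gene of oxidative phosphorylation or the proteasome did. The level of a gene limits its difference, so that neither these medians nor the counts past 0.5 can be compared across the lists. tubb4b, a beta-tubulin gene, was lower by 1.30.

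The difference lay in the level per expressing cell more than in the share of cells. For the 156 genes lower by 0.5 or more, a median of 16.9% of the difference came from the share of cells (quartiles 8.70% and 25.9%) and the rest from the level. Without c4 among the other cells 172 genes were lower by this size, and the median over these genes was 2.03%. All 156 had a lower level over expressing cells in c2, whereas 21 of them were found in a larger share of c2 cells than of the other cells. c2 was unlike c4 and unlike c1, c3 and c5 in different ways. Over the genes compared, its level over expressing cells was lower than that of c1 for 1308 of 1700 genes, of c3 for 1309 of 1700 and of c5 for 1307 of 1692, by a median of 0.50 to 0.65. Against c4 the level was higher in c2 for 1482 of 1700 genes, by a median of 0.60, but the share of cells was lower in c2 for 1673. The median level over expressing cells was 1.89 in c2, against 2.50 in c1, 2.42 in c3, 1.19 in c4 and 2.56 in c5. Summed over all 19914 features, an average c2 cell contained 739.6 features, against 788.8 in c1, 846.1 in c3, 1395.5 in c4 and 815.0 in c5. c2 thus had the fewest features per cell, and the part of this difference in the lower means was not tested, since the tables give no count per cell before correction.

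**Figure D3:**
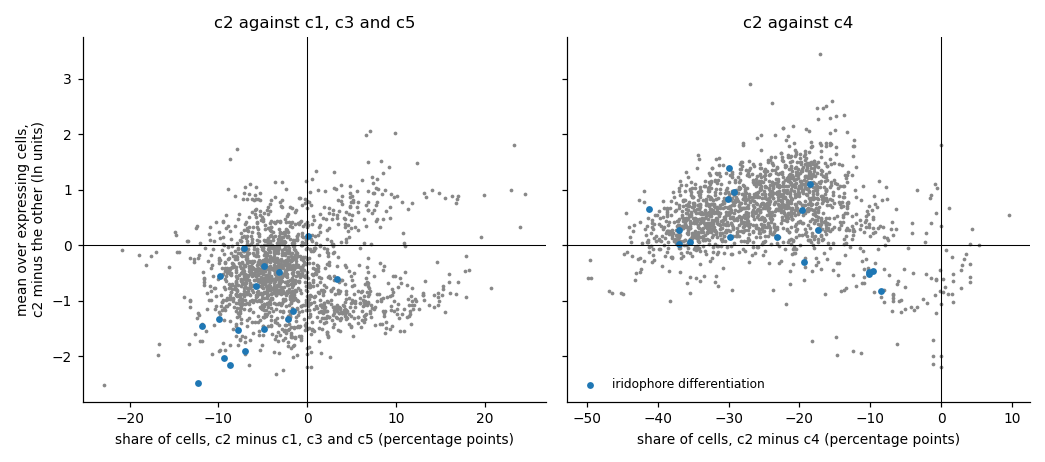
Each point is 1 of the genes compared, with the difference in the share of cells (percentage points) on the horizontal axis and the difference in the mean over expressing cells (natural log units) on the vertical axis, for c2 against c1, c3 and c5 together (left) and against c4 (right). Most points lie below 0 on the vertical axis at left, and left of 0 and above 0 at right; iridophore genes are blue.

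Against this general lowering, a small set of genes was highest in c2. Of the 1700 genes compared, 26 (1.53%) had their highest mean of the 5 clusters in c2, against 197 in c1, 362 in c3, 556 in c4 and 559 in c5. With c4 set aside, 149 were highest in c2. The list of c2 marker candidates held slc2a11b, scarb1, rgcc, bscl2l and gch2, and 4 of these 5 were highest in c2. They were given as markers of c2, so that this restates their choice, and 4 of them (slc2a11b, scarb1, rgcc and bscl2l) reached the 10% share through c2 only. Their values are a description. slc2a11b, which encodes a sugar transporter family member needed for xanthophore pigmentation, was found in 19 c2 cells (10.8%, 6.63 to 16.3%), against 4 c1 cells (2.06%), 1 c3 cell (0.820%), 1 c4 cell (1.22%) and 1 c5 cell (1.39%). scarb1, the scavenger receptor through which xanthophores take up carotenoids, was found in 27 c2 cells (15.3%, 10.4 to 21.5%), against 20 of 194 c1 cells, 8 of 122 c3 cells, 9 of 82 c4 cells and 5 of 72 c5 cells. The intervals of scarb1 in c2 and in the other cells (6.52 to 11.9%) overlapped. Its level over expressing cells was 2.21 in c2, against 1.14 in c1, 1.02 in c3, 1.91 in c4 and 1.94 in c5.

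bscl2l, a seipin gene of lipid droplets, was found in 20 c2 cells (11.4%, 7.08 to 17.0%), against 3.61% of c1, 2.46% of c3, 7.32% of c4 and 2.78% of c5 cells. rgcc, a regulator of the cell cycle, was found in 18 c2 cells (10.2%, 6.17 to 15.7%), against 4.64% of c1, 0.820% of c3, 4.88% of c4 and 5.56% of c5 cells. gch2, the GTP cyclohydrolase that opens pteridine synthesis in xanthophores, was found in 23 c2 cells (13.1%, 8.47 to 19.0%), but in a larger share of c4, 25 of 82 cells (30.5%, 20.8 to 41.6%), and in 6.70% of c1, 4.10% of c3 and 8.33% of c5 cells. Its mean was 0.41 in c2 and 0.51 in c4. Each of these 5 genes was found in at most 15.3% of c2 cells, so that none of them marked c2 as a whole. By their counts alone, between 27 and 107 c2 cells (15.3 to 60.8%) had at least 1 of the 5, and at least 69 c2 cells had none.

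Genes of xanthophores were found in a larger share of c2 cells than of the other cells for some lists and not for others, at 10 of 15 measured genes of the lineage, 7 of 10 of carotenoid and lipid uptake and 4 of 11 of pteridine synthesis, beside 37.8% of all features. These lists contain genes given as c2 markers, which add to the counts and sums: bscl2l and slc2a11b (lineage), scarb1 (uptake) and gch2 (pteridine synthesis). For these genes a larger share in c2 restates their choice. The summed means of the lineage list were 2.08 in c2, against 1.18 in c1, 1.51 in c3, 2.12 in c4 and 1.06 in c5. Those of carotenoid and lipid uptake were 1.26 in c2, against 0.57 in c1, 0.48 in c3, 0.93 in c4 and 0.43 in c5. Those of pteridine synthesis were 1.38 in c2, against 1.00 in c1, 0.84 in c3, 2.09 in c4 and 1.01 in c5, so that c4 had the highest sum for this list and, narrowly, for the lineage. The study reported that both iridophore markers and markers of other pigment cells were lower in c2 and c4. It proposes that these cells are potentially not fully differentiated. By the means over all cells used here, all 4 xanthophore markers of the study instead had their highest mean in c2. Of all 19914 features, 9.56% (1904) did. Besides bscl2l these were slc22a7a, an organic anion transporter gene, in 8.52% of c2 cells (4.85 to 13.7%) against 3.40% of the other cells, aox5, an aldehyde oxidase gene, in 7.95% (4.42 to 13.0%) against 4.04%, and pax7b, a transcription factor gene of the lineage, in 5.68% (2.76 to 10.2%) against 2.13%. Of 15 measured genes of a list of the xanthophore lineage, which includes those 4, 8 were highest in c2. The further genes were csf1ra (2.84% of c2 cells), the receptor that xanthophores need to form, mitfa (4.55%), slc2a11b and slc2a15b (3.41%). The study used mitfa as a melanophore marker, and bscl2l and slc2a11b were c2 marker candidates. Of 10 measured genes of carotenoid and lipid uptake, 4 were highest in c2. bco2b, which encodes a carotenoid-cleaving oxygenase, was found in 7.95% of c2 cells against 3.40% of the other cells. bco1, a related oxygenase gene, was found in 7.39% (3.99 to 12.3%) against 1.91%, and plin6, the perilipin of carotenoid droplets, in 5.11% (2.36 to 9.49%) against 1.49%. Of 11 measured pteridine synthesis genes, in contrast, 1 was highest in c2. This was gch1, a second GTP cyclohydrolase gene, in 9.66% of c2 cells (5.73 to 15.0%), against 3.61% of c1, 2.46% of c3, 4.88% of c4 and none of 72 c5 cells, which allows up to 4.17% of cells with a value (3 cells). pax7a, a paralog of pax7b, went the other way, with 5.68% of c2 cells, against 11.3% of c1, 21.3% of c3, 39.0% of c4 and 11.1% of c5 cells.

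Where slc22a7a, aox5 and pax7b were present, their level over expressing cells was higher in c2 than in each other cluster with a value. That of bscl2l was 2.49 in c2, below 3.07 in c4. slc22a7a had a level over expressing cells of 3.05 ± 1.25 in c2 (SD over 15 cells), against 1.17 in c1, 1.21 in c3, 2.88 in c4 and 0.90 in c5. aox5 had one of 3.12 ± 0.94 in c2 (14 cells), against 1.01 in c1, 0.91 in c3 and 2.69 in c4, with no c5 cell. For both genes the c2 and c4 levels were within 0.5 of each other and those of the remaining clusters lower. The level of pax7b was 2.79 ± 1.05 in c2 (10 cells), against 0.76 in c1, 1.59 in c3 and 0.69 in c5, where a value of 0.69 is that of a single corrected count, and no c4 cell had it, which allows up to 3.66% of cells with a value (3 cells). Other genes with this pattern were picked after their values were seen. Of 2836 features found in at least 5% of c2 cells, 45 (1.59%) were found there in at least 3 times the share of the other cells. crabp2b, which encodes a retinoic acid binding protein, was in 17 c2 cells (9.66%) and 3 of the 470 other cells (0.638%). oacyl, named for O-acyltransferase similarity, was in 16 c2 cells (9.09%) and 1.70% of the other cells, mlpha, a melanophilin gene of organelle transport, in 7.39% and 1.70%, and tfap2e, a transcription factor gene of the neural crest, in 6.25% and 1.70%.

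**Figure D4:**
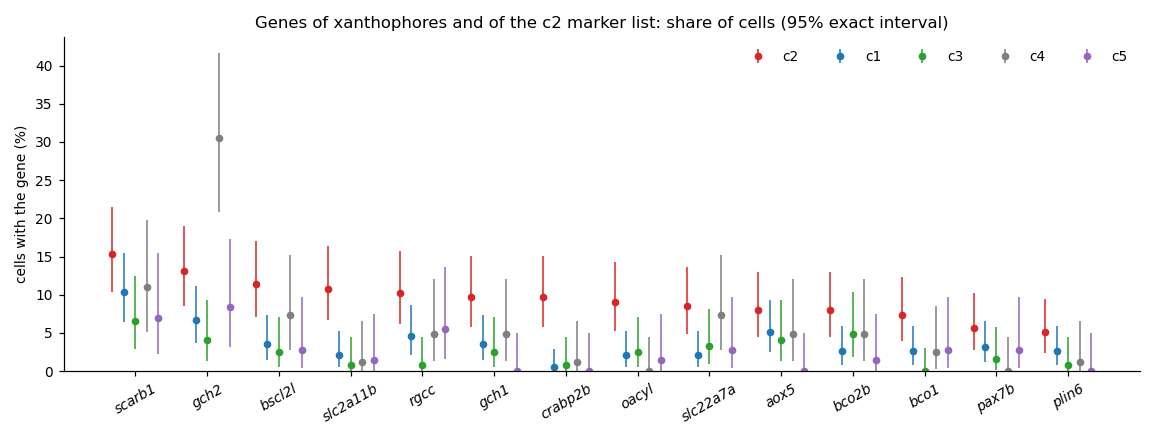
Share of cells (%) of c2, c1, c3, c4 and c5 with 14 chosen genes, with exact 95% intervals. They are genes of xanthophores, the c2 marker list, and crabp2b and oacyl, which were picked after their values were seen. The c2 share is the highest of the 5 for all 14 genes except gch2, which is in 30.5% of c4 cells, and no c2 share exceeds 15.3%. This order largely restates the choice of the 14 genes. Xanthophore genes with a smaller share in c2 than in other clusters, such as pax7a, are not shown.

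The counts bear only in part on whether the same c2 cells carried both sets of genes. The table gives shares of cells and not the values of single cells, and the number of c2 cells with more than 1 xanthophore gene was not tested. Since akap12a was in 161 c2 cells, at least 12 of the 27 cells with scarb1, 8 of the 23 with gch2, 5 of the 20 with bscl2l and 4 of the 19 with slc2a11b also had akap12a. With apoda.1, in 159 c2 cells, at least 10 of the scarb1 cells and 6 of the gch2 cells also had it. For the study's markers gpnmb (141 c2 cells) and pnp4a (133 c2 cells) the counts require no shared cell with any of these 4 genes. Some c2 cells therefore had a value above 0 for akap12a or apoda.1 and for scarb1 or gch2, and such a value can come from a single corrected count.

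The features with the largest positive differences were of another kind. Only 9 features (0.529% of the genes compared) were higher in c2 by 0.5 or more, and none by 1. This number was 2 against c4 alone and 23 against c1, c3 and c5, and the number of genes lower was 236 against c5 alone. CABZ01021592.1, a feature named for its clone, was found in 39.2% of c2 cells, against 15.5% of c1, 11.5% of c3, 64.6% of c4 and 25.0% of c5 cells, and its mean was 1.18 ± 1.88 in c2, against 0.19 ± 0.54 in c1, 0.17 ± 0.56 in c3, 1.14 ± 1.36 in c4 and 0.22 ± 0.43 in c5. Another was a feature carrying the name of the mitochondrial genome, the most abundant of all in c2. It was found in every cell, with a mean of 8.48 ± 0.48 in c2, against 8.16 ± 0.46 in c1, 8.14 ± 0.42 in c3, 6.66 ± 1.71 in c4 and 8.10 ± 0.39 in c5. It was 1 of 8 such features left in the table, although the study states that mitochondrial features were removed, and their means summed to 9.73 in c2, against 9.08 in c1, 9.14 in c3, 8.27 in c4 and 8.90 in c5.

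The remaining 7 features were highest in c4, intermediate in c2 and lower in c1, c3 and c5. This order was found for 123 of the 1700 genes compared (7.24%). h1m, which encodes a linker histone known from the early embryo, had a mean of 2.83 ± 1.24 in c2, against 1.48 ± 0.85 in c1, 1.65 ± 0.98 in c3, 4.57 ± 0.85 in c4 and 1.19 ± 0.54 in c5. It was found in 98.9% of c2 cells, against 93.8% of c1, 98.4% of c3, 100.0% of c4 and 97.2% of c5 cells, so that this was a matter of level and not of presence. kyat1, an aminotransferase gene of the kynurenine pathway, was found in 84.1% of c2 cells, against 59.3% of c1, 63.1% of c3, 98.8% of c4 and 54.2% of c5 cells. Others were zgc:158564, CU929418.1, BX324216.3 and BX323564.1, with c2 means of 3.50, 3.76, 3.73 and 1.91. cldn17, a claudin gene with a c2 mean of 3.56, followed the same order with a difference of 0.45.

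**Figure D5:**
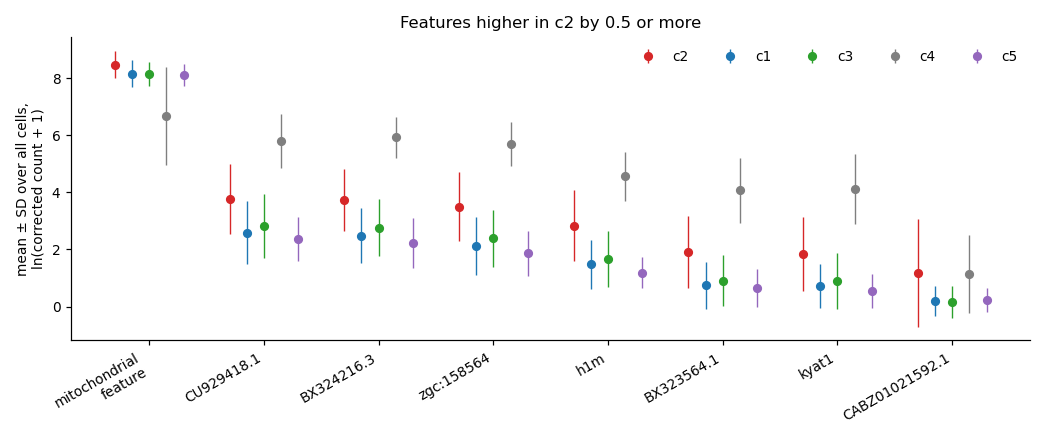
Mean ± SD over all cells of c2, c1, c3, c4 and c5, in natural log units, for 8 features higher in c2 by 0.5 or more. Apart from the mitochondrial feature and CABZ01021592.1, the c2 mean lies below that of c4 and above those of c1, c3 and c5.

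The 12 genes that most exceeded every other cluster were picked among genes in at least 10% of c2 cells. Their rank in c2 therefore restates the choice. Several of those not described above were of other kinds. krt91, a keratin gene, was found in 12.5% of c2 cells, against 6.19% of c1, 1.64% of c3, 13.4% of c4 and 9.72% of c5 cells, with a level over expressing cells of 3.30 in c2 and 2.20 in c4. cd63, a tetraspanin gene of late endosomes, was found in 10.2% of c2 cells, against 3.09% of c1, 5.74% of c3, 6.10% of c4 and 1.39% of c5 cells. CR318588.1, a feature named for its clone, had a mean of 0.59 ± 1.29 in c2, against 0.10 ± 0.36 in c1, 0.14 ± 0.54 in c3, 0.43 ± 0.93 in c4 and 0.12 ± 0.34 in c5. The others were rpp38, a subunit gene of ribonuclease P, polr2a, the largest subunit gene of RNA polymerase II, the nuclear receptor gene nr4a3, the mitochondrial enzyme gene ogdha and the cryptochrome gene cry1ba, all in 10.2 to 10.8% of c2 cells. These shares lie close to the 10% cutoff. Among the genes that reached it through c2 only were krt91 and cd63, the latter in 4.04% of the other cells.

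Few markers of melanophores and of the neural crest were frequent enough to compare. Of 15 measured melanophore genes, 2 were compared and trpm1b, an ion channel gene, was lower by 0.55. Of the 15, 3 had their highest mean in c2 (20%, beside 9.56% of all features), and the median share of c2 cells over this list was 1.70%. Of the 2 melanophore markers of the study, mitfa, a transcription factor gene of melanophore development, was found in 8 c2 cells (4.55%) with its highest mean there, and tyrp1b, of melanin synthesis, in 3 c2 cells (1.70%). Of 21 neural crest progenitor and Schwann cell genes, 4 were compared and none differed by 0.5. sox10, the regulator of the crest lineage, was found in 27.3% of c2 cells, against 23.2% of c1, 20.5% of c3, 57.3% of c4 and 31.9% of c5 cells. zeb2a was found in 13.6% of c2 cells and 7.23% of the other cells. Of 28 proliferation genes, 5 were compared, all with a lower mean in c2 (beside 89.9% of all genes), and hmgb2a, which encodes a chromatin protein, was lower by 0.76.

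Markers of other skin and blood cells moved with c2 in part, and their part in its profile was not tested. Of 25 measured immune genes, 14 (56.0%, beside 9.56% of all features) had their highest mean in c2, and the summed means of the list were 2.22 in c2, against 1.68 in c1, 1.68 in c3, 2.05 in c4 and 1.67 in c5. The genes of the complement and of macrophages were among them at small shares. c1qb was found in 5.11% of c2 cells (2.36 to 9.49%) against 1.91% of the other cells, cd74a in 7.95% against 5.11%, and marco in 4 c2 cells (2.27%) and 1 other cell. The median share of c2 cells was 5.11% over the dermal fibroblast list and 2.84% over the keratinocyte and over the endothelial list. It was 2.27% over the immune list, 1.70% over the muscle list and 1.14% over 6 erythrocyte genes. For xanthophores it was 4.55% over the lineage list, 5.11% over carotenoid and lipid uptake and 2.27% over pteridine synthesis. Of 27 dermal fibroblast genes, 6 were highest in c2, with summed means of 4.44 in c2, against 3.32 in c1, 3.87 in c3, 6.83 in c4 and 3.27 in c5, and sparc was in 48.3% of c2 cells and 41.3% of the other cells. Of 25 keratinocyte genes, 4 were highest in c2, with summed means of 7.31 in c2, against 7.05 in c1, 8.06 in c3, 7.90 in c4 and 8.35 in c5. agr1, krtt1c19e and cldnf were at 0 in c2, which allows up to 1.70% of cells with a value (3 cells). agr1 was in only 1.06% of the other cells. krt8 was found in 88.6% of c2 cells and 84.9% of the other cells. Of 22 muscle genes, 6 were highest in c2, with summed means of 2.13 in c2, against 1.01 in c1, 1.17 in c3, 5.16 in c4 and 0.81 in c5. ttn.2, a titin gene, had a mean of 0.68 in c2, against 0.17 in c1, 0.26 in c3, 1.72 in c4 and 0.15 in c5. Of 19 endothelial genes, 1 was highest in c2 and sox17 was at 0, with the same limit of 1.70%. Their summed means were 0.66 in c2, against 0.40 in c1, 0.37 in c3, 1.23 in c4 and 0.42 in c5. None of the 6 erythrocyte genes was highest in c2, and their summed means were 0.08 in c2, against 0.05 in c1, 0.09 in c3, 0.24 in c4 and 0.04 in c5.

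Genes of cell state were lower in c2 where they were abundant elsewhere. Of 23 compared immediate early genes, which respond to stimulation and to dissociation of tissue, 5 were lower by 0.5 or more (21.7%, beside 9.18% of all genes compared). None was higher by that size, and the median difference was -0.28. It turned to 0.16 relative to the ribosomal protein genes, which were not matched to this list by level. fosab was found in 90.3% of c2 cells, against 83.0% of c1, 79.5% of c3, 100.0% of c4 and 95.8% of c5 cells, with a mean of 2.24 ± 1.54 in c2, against 2.83 ± 2.12 in c1, 3.01 ± 2.08 in c3, 2.27 ± 1.15 in c4 and 5.23 ± 1.78 in c5. ier2a was lower by 0.92, fosb by 0.60 and btg2 by 0.54. The summed means of the immediate early list were highest in c5 (38.4, against 15.5 in c2). Of its 54 measured genes, 3 were highest in c2 (5.56%, beside 9.56% of all features). For fosb, c2 was close to c1 (0.67 in c2, against 0.79 in c1). Of 22 compared heat shock and chaperone genes, hspa8 and hsp90aa1.2 were lower by 0.69 and 0.54 (9.09% of the 22, near the 9.18% of all genes compared). All 22 had a lower mean in c2, as 89.9% of all genes compared did. Of 7 compared genes of apoptosis and p53, none differed by 0.5. mcl1a, an inhibitor of apoptosis, was found in 56.2% of c2 cells, against 35.6% of c1, 43.4% of c3, 80.5% of c4 and 54.2% of c5 cells.

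The pathways that serve pigment organelles held few abundant genes. Of 39 measured genes of purine synthesis and salvage, 14 were compared, and 13 of these had a lower mean in c2 (92.9%, near the 89.9% of all genes compared). Among the 14, pnp4a alone was lower by 0.5 or more (1.14), which was 7.14%, near the 9.18% of all genes compared. Of 15 compared genes of lysosomes and related organelles, gpnmb alone was lower by this size (6.67%). Each was the only compared gene of its list with a mean of at least 2 in the other clusters. At that level, 76.6% of all genes compared were lower by this size. None of 7 compared genes of the vacuolar ATPase was lower by this size, although all 7 had a lower mean (beside 89.9% of all genes). Of 9 compared genes of lipid droplets and cholesterol, apoda.1 was lower by this size (11.1%, near the 9.18% of all genes compared) and 6 had a higher mean in c2. Of all genes compared, in contrast, 89.9% had a lower mean there. The count of 6 is in part a matter of choice, since 2 of the 9 reached the 10% share through c2 only. The largest positive difference of the list (0.22) was that of bscl2l, a c2 marker candidate. Of 15 compared genes of cell junctions and adhesion, itga6b, an integrin gene, was lower by 0.69 and alcama, an immunoglobulin-type adhesion gene, by 0.62. These were 13.3% of the 15, beside 9.18% of all genes compared. alcama was found in 17.6% of c2 cells, against 21.6% of c1, 33.6% of c3, 67.1% of c4 and 15.3% of c5 cells. Of 5 compared regulators of G protein signalling, rgs4 alone was lower by 0.5 or more (20%, beside 9.18% of all genes compared). It was lower by 0.54, with a mean of 0.30 in c2, against 0.59 in c1, 1.81 in c3, 0.72 in c4 and 0.02 in c5. Its c2 mean thus lay between those of c5 and c1.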

How the data were processed

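Single cells of 8 plates were sequenced with a plate-based protocol that tags molecules. Per the submitters' notes, reads were demultiplexed with bcl2fastq 2.20 and aligned with STAR to GRCz11. By the study's methods the authors filtered cells and features, removed mitochondrial features (8 remain in the table), corrected counts with SCTransform in Seurat and clustered the cells. The authors' deposited cluster table pools all plates (176 cells of c2 among 646) and lists, for 19914 features, the percent of cells expressing each. It also lists the deposited mean and SD of the expressing cells on a natural log scale (corrected count plus 1). Depth per cell was not used here, and correction can shift levels of many genes together. A second table, with log fold changes and p-values of the authors' comparison between c5 and c3, was not used.

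From these, cell numbers (within 0.00495 percentage points of the listed percent) and the mean and SD over all cells were computed in Python 3.11.15 with pandas 2.3.3, numpy 2.4.6 and scipy 1.17.1, tested on simulated data. Names were found for 18929 features. Members, gene lists and the rule for named genes were chosen with earlier results of these data known, and kinases and binding proteins caught by the name patterns for ribosomal proteins and translation factors were left out after values were seen. The rule names the study's marker lists and the c2 candidates, the 12 genes most above and the 12 most below every other cluster, the 12 highest means in c2, and in each list the 4 largest differences past 0.5 or else the 2 highest means in c2. Further genes were picked after values were seen. Alternatives used other references, filters, sizes, centrings and measures. Some genes that the rule would name are not reported here.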

Additional observations from a re-analysis of the deposited data

How the results depend on the processing

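The count of 156 genes lower in c2 by 0.5 or more became 236 against c5 alone, 28 at a size of 1, 453 for levels over expressing cells (genes with at least 3 such cells on each side), 339 for shares differing by 10 percentage points and 76 relative to the median of all genes. The count of 9 genes higher became 23 against c1, c3 and c5, 3 with equal weight for each cluster, 25, 18, 2 and 28 against c1, c3, c4 and c5 alone, 0 at a size of 1, 174 for levels over expressing cells and 19 relative to the median. Relative to that median 80% of the genes past 0.5 were lower, against 94.5% without it. Without c4, 149 genes were highest in c2 in place of 26, and 8 were with a filter of 25% of cells in at least 1 cluster. The part of the lower means that came from the share of cells, a median of 16.9%, was 2.03% over the 172 genes lower against c1, c3 and c5.

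Every iridophore marker kept a negative difference under every alternative run except tfec, whose level over expressing cells was higher. Against c4 alone, gpnmb (-0.12), pnp4a (-0.32), alx4a (-0.38) and alx4b (-0.42) were within 0.5. So were alx4a (-0.44) and alx4b (-0.28) against c5 alone, and alx4b with c3 alone (-0.44), equal weights (-0.45) or relative to the median (-0.34). By share of cells, pnp4a (-8.05), alx4a (-6.51) and alx4b (-7.96) differed by under 10 percentage points, and tfec by -11.1. The list of lipid droplets and cholesterol reversed to -1.02 at a filter of 25% of cells, which compares fewer genes, against 0.03. Of 219 list medians under alternatives, 207 over 28 lists stayed on the same side of 0.5 and 182 kept their sign. Of the 12 that did not stay, 6 were of iridophore lists. The median of iridophore differentiation (-0.51) was -0.45 with equal weights, -0.46 at 5% of cells, -0.16 without a filter, -0.34 relative to the median of all genes and -0.06 relative to ribosomal protein genes, and that of the 5 study markers (-0.67) was -0.23 relative to ribosomal protein genes. Setting medians against the ribosomal protein genes did not match genes by level, and the level of a gene limits its difference. The minimum of 3 expressing cells and the filters by share in single clusters were chosen after seeing the data. Cells are not replicates, and the pooled table leaves no sample that could be left out. No paired analysis was possible because the tables pool all plates. Depth per cell and the skin band of c2 cells were not analysed here.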
